A study of Mus musculus with 21 samples.

Results

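Polymorphonuclear neutrophils (PMNs) were compared by RNA-Seq 24 hours after renal ischemia-reperfusion injury (IRI) or after sham surgery, in 10 libraries chosen by their labels out of the 21 libraries of the series, of which the other 11 were of renal tubular epithelial cells (TECs). All mice were wildtype male C57BL/6 animals of 8 to 12 weeks. IRI was a clamp of the renal pedicles for 32 min. Each operation followed either remote ischemic preconditioning (RIPC), which was 3 cycles of a leg cuff at 200 mmHg, or a control cuff at 20 mmHg. The sham arm held 2 control and 3 RIPC libraries, and so did the IRI arm, so that the 5 IRI libraries were set against the 5 sham libraries with preconditioning as a covariate. The labels give blood as the source and neutrophils as the sorted cell, and the study calls its libraries biological replicates and counts animals in its in vivo experiments. The PMN control groups used here hold fewer libraries than its legend gives per group.

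Neutrophils are short-lived phagocytes that leave the blood for injured tissue. Bacterial products, complement fragments, formyl peptides and products of dying cells are sensed by receptors such as TLR4 with CD14, C5aR1 and the formyl peptide receptors. In the activated cell NF-kB and the immediate early factors then drive chemokines, IL-1 and their own inhibitors, together with genes of glycolysis and of the defence against oxidants. MHC class II molecules, which show peptides to CD4+ T cells, belong mainly to dendritic cells, macrophages and B cells. In acute kidney injury neutrophils are known as early arrivals that add to tubular damage.

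The neutrophil label was checked against marker genes. Levels within a gene are given as normalized CPM (estimated reads scaled to library size, with TMM factors), and levels between genes as reads per effective transcript length, scaled to the same total in every library. On the per-length scale S100a8, a calcium-binding protein that fills the neutrophil cytosol, stood at 11700 ± 7160 (SD, n = 5) after sham surgery and 11300 ± 4190 after IRI. The defining surface marker Ly6g was at 49.1 ± 21.1 normalized CPM after sham surgery and 57.9 ± 37.0 after IRI. Summed over 18 neutrophil markers, the sham libraries held 6750 to 29500 normalized CPM and the IRI libraries 29400 to 49700. The sum of 13 markers of immature neutrophils ran from 515 to 8470 and from 4720 to 6210. Markers of other cells were present as well. The sum of 16 monocyte and macrophage markers was 5500 to 18900 after sham surgery and 2690 to 4930 after IRI, with none at 0 in every library. Dendritic cell markers summed to 154 to 529 against 39.8 to 127, and B cell markers to 88.2 to 327 against 21.8 to 75.6. Although the labels give blood, transcripts of kidney epithelium were measured in every library. The sum of 13 proximal tubule markers was 1400 to 12400 after sham surgery and 668 to 1150 after IRI. The IRI libraries thus lay below the sham libraries without overlap for macrophages, dendritic cells, B cells and proximal tubule. Single markers were less uniform. Of those tested, 11 of 16 macrophage, 6 of 9 dendritic cell, 6 of 11 B cell and 13 of 13 proximal tubule markers had log2 fold changes below 0. The median log2 fold change of all genes tested was 0.00. For 5, 2, 0 and 2 of the markers every IRI library was below every sham library, as it was for 2.08% of all genes tested. In the sham libraries Cd74, Kap and Apoe were among the 9 most abundant genes per length, at 7980 ± 2620, 4690 ± 3290 and 4080 ± 2320. The reads assigned to genes also split by surgery, 20838188 to 23465775 per sham library and 25616060 to 30458781 per IRI library. Mitochondrial reads were 2.37% to 13% of the sham libraries, highest in control replicate 2 and lowest in control replicate 1, and 1.43% to 3% of the IRI libraries. The part of depth and of mitochondrial share in the results was not tested. Between 10.8% and 37.2% of the reads fell to 7 predicted genes of repeated sequence.

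**Figure D1:**
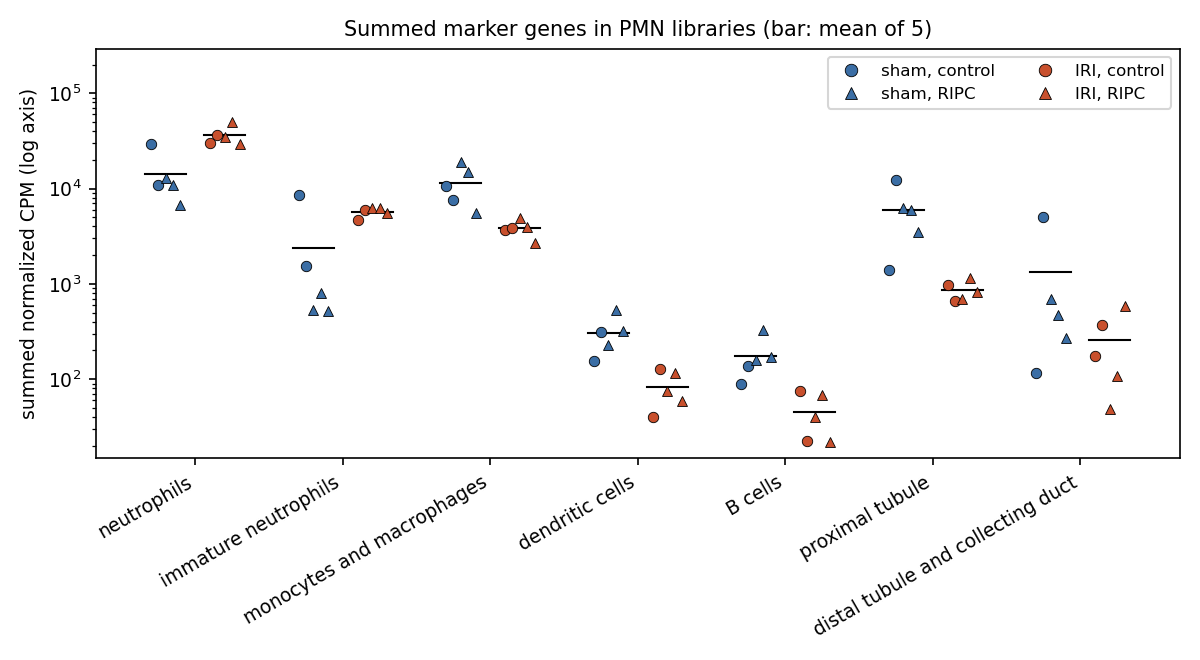
Summed normalized CPM (log axis) of marker genes of 7 cell types in the 10 PMN libraries. Points are libraries (blue sham, orange IRI; circles control, triangles RIPC) and bars are means of 5. The macrophage, dendritic cell, B cell and proximal tubule sums were lower in every IRI library, whereas the neutrophil sums overlapped because sham control replicate 1 reached 29500.

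After IRI, 89 genes rose and 18 fell in PMNs. The genes that rose included the chemokine gene Cxcl2, the chemokine receptor-like gene Ccrl2, the itaconate-forming enzyme gene Acod1, the cystine carrier gene Slc7a11, pattern receptors and feedback genes of NF-kB. The genes that fell were led by H2-Aa, H2-Ab1, H2-Eb1 and Cd74 of MHC class II presentation. By the quasi-likelihood F test of edgeR, with Benjamini-Hochberg adjusted p under 0.05, the 107 genes were 0.428% of the 25002 tested, 0.356% for genes higher and 0.0720% for genes lower after IRI. An unadjusted p under 0.05 was reached by 3336 genes, 7.54% of those tested being higher and 5.81% lower after IRI. The median log2 fold change of all genes tested was 0.00, that of the genes that rose 2.60, and that of the genes that fell -3.26. In all 107 the IRI and sham libraries did not overlap, where over all genes tested every IRI library was above every sham library for 3.43% and below for 2.08%. In bulk RNA a lower level from fewer cells of a type and from less RNA per cell cannot be told apart. The same holds for a higher level from more cells of a type and from more RNA per cell. All 18 neutrophil markers had log2 fold changes above 0, with a median of 1.80. The part of neutrophil content in the genes and lists that rose was not tested.

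The number of genes past the threshold moved with single libraries. It was 301 without sham control replicate 1, 59 and 67 without sham RIPC replicates 1 and 2, 56 without IRI control replicate 2, and 43, 43 and 55 without IRI RIPC replicates 1, 2 and 3. In each of the 10 fits with a library left out, 33 of the 107 genes passed, 28 higher and 5 lower. Those included Ccrl2, Cxcl2, Acod1, Slc7a11, Hdc, Plek, Pim1, Smox, Slc16a3, Cd44, Clec4e, Il1rn, Nr4a1, H2-Aa, H2-Ab1, H2-Eb1, Cd74 and Ch25h. Of 52 called genes chosen for naming, 24 were among the 33, and the others lost the call in at least 1 of these fits. The adjusted p was highest without IRI RIPC replicate 1 for Egr3, Clec4b1, Cst3, Ifit1, H2-DMb1, Hspe1, Fpr1, Uqcr11, Tmem176b and Kap, and without IRI RIPC replicate 2 for H2-DMa, Mgl2, Slc2a1 and Il1b. It was highest without IRI RIPC replicate 3 for Il12a, without IRI control replicate 2 for Relb, Fpr2 and Ctsl, without sham RIPC replicate 1 for Nfkbid, Cd14, Trem1, Mcl1, Ier3 and S100a11, and without sham RIPC replicate 2 for Cd81, Clec4d, Nfkbia and Pkm. Those values ran from 0.0519 for Nfkbid to 0.172 for Il12a. With the log2 sum of the macrophage markers or of the proximal tubule markers as a further covariate, no gene passed by edgeR, and 2215 and 1541 genes had an unadjusted p under 0.05. Both sums separate the surgery groups, so their part and that of surgery cannot be told apart in these fits.

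**Figure D2:**
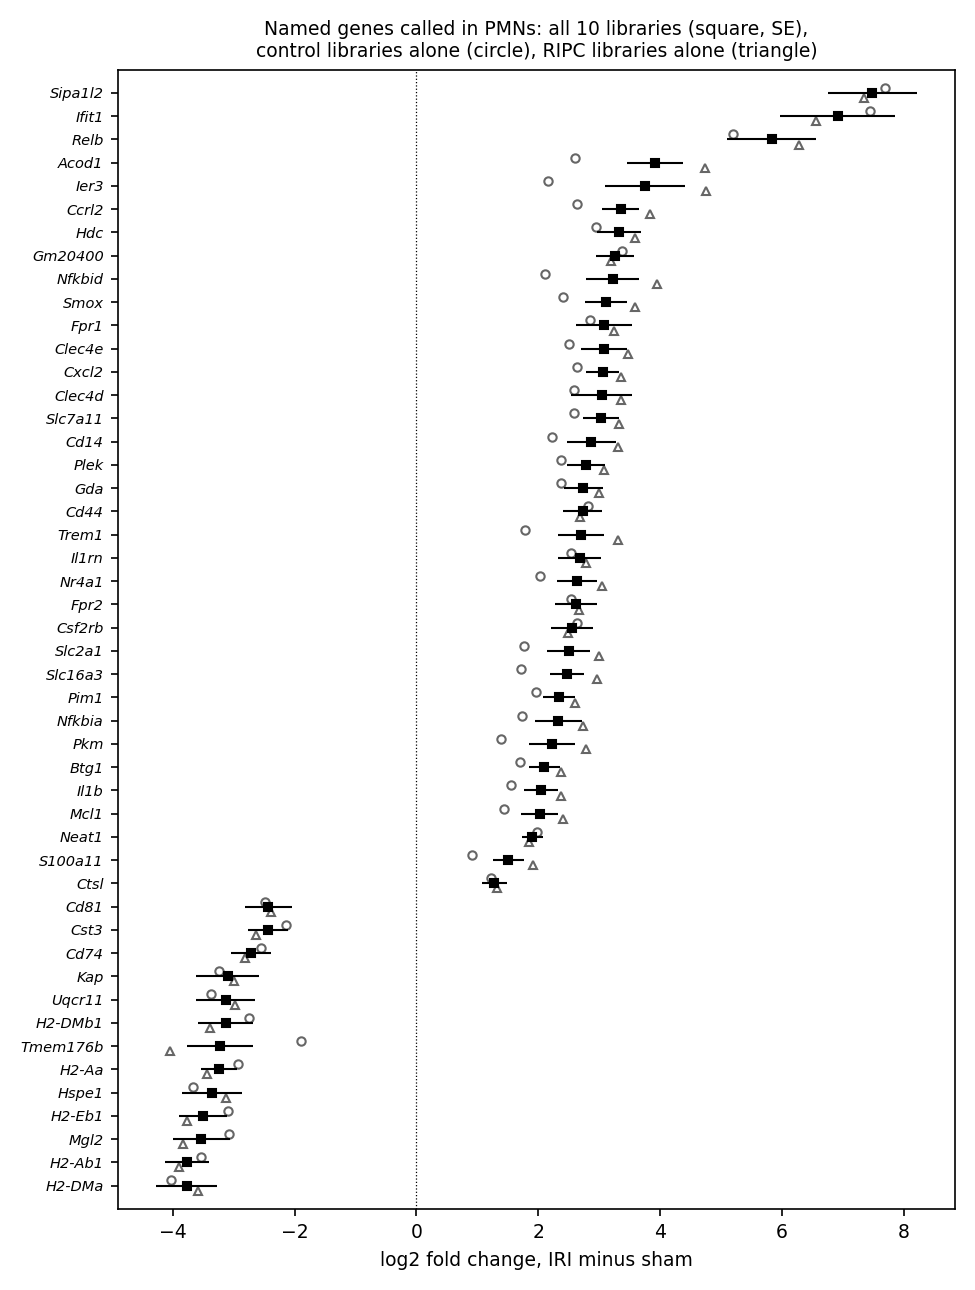
Log2 fold changes (IRI minus sham) of 48 of the 52 named genes past the threshold, without the 4 that had a group at or under 3 reads per library. Squares with SE bars use all 10 libraries, circles the 2 IRI and 2 sham control libraries alone, and triangles the 3 and 3 RIPC libraries alone. Circles and triangles lay on the same side of 0 as the square for each gene.

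Ccrl2, a receptor-like protein that binds the chemoattractant chemerin without signalling itself, gave the clearest rise among the receptors. It measured 217, 251, 231, 147 and 205 normalized CPM in the sham libraries and 1070, 1880, 2380, 2720 and 3080 in the IRI libraries, in each case control replicates 1 and 2 and then RIPC replicates 1 to 3. The lowest IRI library was over any sham library, and both IRI control libraries were below the 3 IRI RIPC libraries. The log2 fold change was 3.35 ± 0.30 (SE, adjusted p = 0.00365). It was 2.63 in the control libraries alone and 3.83 in the RIPC libraries alone, with an interaction of 1.16 (adjusted p = 0.719). On the per-length scale the mean went from 107 ± 25.8 to 1030 ± 363. Ccrl2 lies at chr9:111054486-111057519 on the minus strand (GRCm38, Gencode M21).

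Among 32 tested chemoattractant and cytokine receptors, 6 rose and 0 fell, with a median log2 fold change of 2.12 over the list. Beside Ccrl2 these were the formyl peptide receptors Fpr1 and Fpr2, the complement receptor C5ar1, the platelet-activating factor receptor Ptafr, and Csf2rb, the shared chain of the GM-CSF, IL-3 and IL-5 receptors. Fpr1 went from 49.7 ± 29.5 to 420 ± 53.8 normalized CPM (log2 3.08 ± 0.46, adjusted p = 0.0230) and Fpr2 from 35.7 ± 8.92 to 219 ± 54.2 (log2 2.62 ± 0.35, adjusted p = 0.0132). C5ar1 went from 356 ± 162 to 1570 ± 436 (adjusted p = 0.0397), Ptafr from 118 ± 51.7 to 663 ± 132 (adjusted p = 0.0288) and Csf2rb from 110 ± 41.2 to 641 ± 127 (adjusted p = 0.0133). C5ar1 and Ptafr were called in 4 and 3 of the 10 fits with a library left out. Csf2rb has a near-identical neighbour, Csf2rb2, with which reads may have been shared out, and Csf2rb2 itself had a log2 fold change of 3.50 (adjusted p = 0.132). Cxcr2, the receptor for Cxcl2, was at 144 ± 87.1 and 716 ± 139 (log2 2.39 ± 0.47, adjusted p = 0.0735). The number of receptors that rose was 2 without IRI control replicate 2 or IRI RIPC replicate 1, 3 without sham RIPC replicate 2 or IRI RIPC replicate 2 or 3, and 5 to 9 without any other library.

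Cxcl2, a ligand of CXCR2 that draws neutrophils, was among the most abundant transcripts after IRI. Its normalized CPM was 706, 518, 651, 472 and 310 after sham surgery and 3170, 4490, 3680, 5810 and 5000 after IRI. The lowest IRI library was well above the highest sham library. Its log2 fold change was 3.06 ± 0.27 (adjusted p = 0.00365), and its per-length mean was 480 ± 170 against 3310 ± 806. Of 17 tested chemokine genes it was the only member past the threshold. Cxcl3, which neighbours and resembles it, was at 0.353 to 111 after sham surgery and 630 to 1150 after IRI (log2 4.56 ± 1.28, adjusted p = 0.222). Ccl3 and Ccl6 had log2 fold changes of 0.86 ± 0.32 and 1.23 ± 0.42 with overlapping groups. Cxcl2 lies at chr5:90903871-90905938 on the plus strand.

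Acod1, the mitochondrial enzyme that makes itaconate from cis-aconitate, stood at 128, 307, 80.4, 97.8 and 92.6 normalized CPM after sham surgery and 1150, 1550, 2430, 2580 and 2180 after IRI. Sham control replicate 2 was highest in its group and still below each IRI library. The log2 fold change was 3.91 ± 0.46 (adjusted p = 0.00975). Like Ccrl2, it differed between the arms in size, with 2.61 in the control libraries and 4.74 in the RIPC libraries, and the interaction of 2.09 did not pass (adjusted p = 0.719). Of 15 tested genes of itaconate, arginine, polyamine and eicosanoid metabolism, Acod1 was the 1 gene called. Ptgs2, the inducible prostaglandin synthase, was at 149 ± 120 and 780 ± 296 (log2 2.38 ± 0.59, adjusted p = 0.153), and Cd274, the gene of PD-L1, at 0.511 to 31.8 and 83.9 to 400 (log2 5.48 ± 1.01, adjusted p = 0.0591). Acod1 lies at chr14:103046977-103056573 on the plus strand.

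Slc7a11, the cystine-glutamate exchanger that feeds glutathione synthesis and a known target of NRF2, measured 94.2, 95.4, 61.3, 51.9 and 46.7 normalized CPM after sham surgery and 613, 541, 362, 538 and 696 after IRI. No sham library came near the lowest IRI library, RIPC replicate 1. The log2 fold change was 3.03 ± 0.29 (adjusted p = 0.00365). On the per-length scale it was a low-level gene, at 11.9 ± 4.5 and 69.5 ± 12.0. It was the 1 gene called among 22 NRF2 targets and iron storage genes, which had a median of 1.03. Hmox1, the heme-degrading enzyme gene, was at 15.8 to 187 and 492 to 1230 (log2 3.50 ± 0.65, adjusted p = 0.0598). Fth1, the ferritin heavy chain gene, went from 6270 ± 1860 to 14800 ± 3120 (log2 1.24 ± 0.25, adjusted p = 0.0839). Gclm and Gclc, which make glutathione, had log2 fold changes of -2.35 and -0.05. Slc7a11 lies at chr3:49892526-50443614 on the minus strand.

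Measures of neutrophil RNA were taken beside these 4 genes. Per 1000 reads of S100a8 and S100a9 together, Ccrl2 had 12.5 to 48.9 reads after sham surgery and 132 to 488 after IRI, Acod1 7.37 to 42.5 and 143 to 346, Cxcl2 40.7 to 77.1 and 340 to 794, and Slc7a11 5.42 to 13.2 and 31.4 to 110. The groups did not overlap for any of the 4. The neutrophil marker sum of sham control replicate 1 was 29500, and Ccrl2, Cxcl2, Acod1 and Slc7a11 were at 217, 706, 128 and 94.2 there. Of the 18 neutrophil markers all had a log2 fold change above 0, with a median of 1.80 and a range of 0.16 to 3.38. Hdc, Clec4d and Trem1 were themselves called higher. S100a8 and S100a9 had log2 fold changes of 0.16 ± 0.39 and 0.43 ± 0.37 (adjusted p = 0.906 and 0.721). The ratios above thus rest on 2 markers that changed less than the median marker. With the macrophage marker sum as a covariate the fitted log2 changes were 3.03 for Ccrl2, 3.57 for Cxcl2, 3.28 for Acod1 and 2.82 for Slc7a11, with adjusted p from 0.388 to 0.503. The part of neutrophil content in these changes was not tested.

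**Figure D3:**
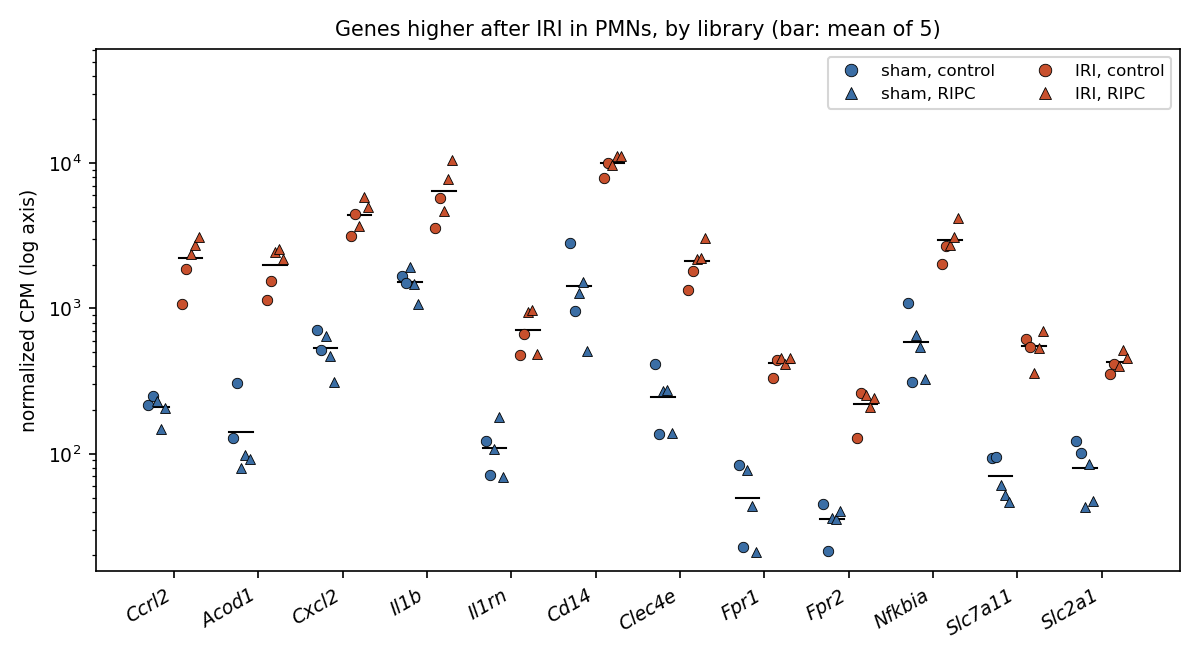
Normalized CPM (log axis) in each PMN library for 12 genes that rose. Blue points are sham and orange points IRI libraries, circles control and triangles RIPC, and bars are means of 5. No IRI library overlapped a sham library for any of these genes.

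The stretch before the start of 4 of these genes was read from RefSeq promoters (GRCm38.p6), since NF-kB and NRF2 are the factors best known at them. The 250 bases upstream of the start are printed for Ccrl2, chr9:111057519-111057768 (minus strand), Cxcl2, chr5:90903649-90903898 (plus strand), Acod1, chr14:103046762-103047011 (plus strand), and Slc7a11, chr3:50443614-50443863 (minus strand). Each runs 5′ to 3′ on the gene's strand. Capitals mark the NF-kB-type site, which is GGG, any 5 bases and CC, on either strand and with overlapping matches joined, in Ccrl2, Cxcl2 and Acod1, and the antioxidant response element core TGANNNNGC on either strand in Slc7a11.
Ccrl2: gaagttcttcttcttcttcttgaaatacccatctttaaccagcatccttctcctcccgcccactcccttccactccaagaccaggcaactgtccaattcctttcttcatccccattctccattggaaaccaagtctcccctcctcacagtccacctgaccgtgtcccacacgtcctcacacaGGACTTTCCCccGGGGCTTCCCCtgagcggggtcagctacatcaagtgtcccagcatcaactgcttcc
Cxcl2: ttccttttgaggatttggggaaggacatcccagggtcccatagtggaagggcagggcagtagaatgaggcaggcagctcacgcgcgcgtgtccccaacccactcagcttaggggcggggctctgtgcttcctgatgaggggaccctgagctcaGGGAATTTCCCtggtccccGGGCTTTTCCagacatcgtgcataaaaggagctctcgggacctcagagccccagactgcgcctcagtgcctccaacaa
Acod1: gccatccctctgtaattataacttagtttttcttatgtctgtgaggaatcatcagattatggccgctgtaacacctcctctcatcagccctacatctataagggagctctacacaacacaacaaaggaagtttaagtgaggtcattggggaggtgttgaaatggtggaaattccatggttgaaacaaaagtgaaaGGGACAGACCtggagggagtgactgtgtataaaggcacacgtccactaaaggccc
Slc7a11: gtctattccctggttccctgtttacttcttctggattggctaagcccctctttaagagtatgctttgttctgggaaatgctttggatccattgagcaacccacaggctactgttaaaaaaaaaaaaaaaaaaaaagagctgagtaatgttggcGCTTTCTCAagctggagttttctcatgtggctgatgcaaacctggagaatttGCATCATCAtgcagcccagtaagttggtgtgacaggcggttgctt
Ccrl2 and Cxcl2 each held 3 matches, of which 2 overlapped, between 68 and 46 bases before the start in Ccrl2 and between 97 and 69 in Cxcl2. Acod1 held a single match, 55 to 46 bases upstream, ahead of a TATA box. The cores in Slc7a11 began 97 and 45 bases upstream. Not in capitals are 2 antioxidant cores in Ccrl2, beginning 42 and 33 bases upstream, and an NF-kB-type match in Slc7a11, beginning 213 bases upstream. Such letters are common. In the window of 300 bases the NF-kB-type site was found in 54.6% of 20440 promoters, in 40 of 69 promoters of genes that rose and in 12 of 14 of genes that fell. The antioxidant core was in 41.9% of all promoters, in 37 of the 69 and in 8 of the 14.

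Pattern receptors formed a further group, with 4 of 28 tested genes higher and 0 lower. They were Cd14, the co-receptor of TLR4, Clec4e and Clec4d, the partner lectins Mincle and MCL that sense microbial glycolipids and dead cells, and Trem1, which amplifies inflammatory signals. Cd14 was at 2840, 964, 1270, 1520 and 512 normalized CPM after sham surgery and 7890, 9980, 9750, 11200 and 11200 after IRI (log2 2.87 ± 0.40, adjusted p = 0.0145). Sham control replicate 1 came closest to the IRI libraries. Clec4e went from 247 ± 117 to 2120 ± 630 (adjusted p = 0.0113), Clec4d from 169 ± 117 to 1380 ± 187 (adjusted p = 0.0343) and Trem1 from 265 ± 207 to 1470 ± 182 (adjusted p = 0.0168). The count of 4 was 1 without sham RIPC replicate 1 or IRI RIPC replicate 1 or 2, 2 without sham RIPC replicate 2 or IRI RIPC replicate 3, and 3 or 4 without any other library. Cd14, Clec4e, Clec4d and Trem1 were called in 7, 10, 3 and 5 of the 10 fits with a library left out. The adjusted p of Clec4d was highest, 0.0999, without sham RIPC replicate 2. Tlr2 and Tlr4 had log2 fold changes of 2.53 and 2.87 with adjusted p of 0.474 and 0.396.

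Cytokine genes rose for 3 of 22 tested members. Il1b, the secreted IL-1 form, measured 1660, 1490, 1920, 1470 and 1080 normalized CPM after sham surgery and 3570, 5800, 4670, 7810 and 10500 after IRI (log2 2.05 ± 0.28, adjusted p = 0.0145). Its spread was wider in the IRI group. Il1rn, the antagonist of the IL-1 receptor, rose with it from 110 ± 44.6 to 712 ± 243 (log2 2.68 ± 0.35, adjusted p = 0.0132). Il12a, the p35 subunit of IL-12, had 2 reads in 1 sham library and none in the other sham libraries, against 219, 890, 703, 18 and 2301 reads after IRI (adjusted p = 0.0475). The IRI libraries differed widely there. Il12a was called in 2 of the 10 fits with a library left out, and without IRI RIPC replicate 3 its adjusted p was 0.172. The count of 3 was 4 without sham control replicate 1, 1 without sham RIPC replicate 1 or 2, and 2 without each other library. Osm was at 226 ± 144 and 1070 ± 510 (log2 2.40 ± 0.51, adjusted p = 0.0977), and Tnf at 50.8 ± 46.8 and 371 ± 175 (log2 2.80 ± 0.90, adjusted p = 0.303).

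Of 24 NF-kB subunits, inhibitors and feedback genes 3 rose, and 22 had a log2 fold change above 0. Nfkbia, the inhibitor IkBa that NF-kB induces, went from 585 ± 318 to 2940 ± 807 normalized CPM (log2 2.33 ± 0.38, adjusted p = 0.0353). Nfkbid, a nuclear inhibitor of the same family, went from 45.9 ± 18.9 to 423 ± 156 (log2 3.22 ± 0.43, adjusted p = 0.0132). Relb, a subunit of the non-canonical arm, was at 0.424 to 1.97 after sham surgery and 10.1 to 80.6 after IRI (log2 5.83 ± 0.73, adjusted p = 0.0115). Nfkbiz and Tnfaip3 were higher in every IRI library without a call, with log2 fold changes of 2.88 ± 0.57 and 3.31 ± 0.81 (adjusted p = 0.0793 and 0.142). Nfkb1 and Rel had 0.70 and 0.85. The count of 3 was 1 without sham RIPC replicate 1 or IRI control replicate 2, and 5 without sham control replicate 2. It was 2 to 4 without any other library. Nfkbia was called in 3 of the 10 fits with a library left out, with the highest adjusted p (0.105) without sham RIPC replicate 2.

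Immediate early genes rose for 5 of 33 tested, and 31 of 33 were above 0 with a median of 1.41. The count was 8 without sham control replicate 1, 2 without IRI RIPC replicate 1, 3 without sham RIPC replicate 2 or 3, IRI control replicate 2, or IRI RIPC replicate 2 or 3, and 4 or 5 without any other library. Nr4a1, an orphan nuclear receptor, went from 163 ± 59.7 to 985 ± 170 (log2 2.63 ± 0.33, adjusted p = 0.0115). Btg1, a restraint on cell division, went from 247 ± 55.3 to 1070 ± 273 (adjusted p = 0.0115), and Dusp1, a phosphatase that turns off MAP kinases, from 1610 ± 522 to 4280 ± 729 (adjusted p = 0.0475), the latter called in 2 of the 10 fits with a library left out. Ier3 was at 343, 102, 45.2, 38.1 and 97.0 after sham surgery and at 673, 1340, 1240, 1710 and 1900 after IRI (log2 3.75 ± 0.65, adjusted p = 0.0461). It was called in 2 of the 10 fits with a library left out, and without sham RIPC replicate 1 its adjusted p was 0.130. Egr3, a zinc finger factor, had a single read in 1 sham library and 422, 367, 1091, 725 and 269 reads after IRI (adjusted p = 0.0132). Pim1, a kinase induced by STAT signalling, rose from 104 ± 29.3 to 518 ± 56.8 (log2 2.34 ± 0.26, adjusted p = 0.00818) as the 1 member called of 16 STAT3 and SOCS genes.

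Glucose handling was represented by 3 of 29 tested glycolysis and hypoxia-induced genes, with 0 lower. Slc2a1, the glucose carrier GLUT1, went from 79.7 ± 34.5 to 428 ± 60.4 (log2 2.50 ± 0.35, adjusted p = 0.0145), and Slc16a3, the lactate exporter MCT4, from 254 ± 96.8 to 1340 ± 256 (log2 2.47 ± 0.28, adjusted p = 0.00818). Pkm, pyruvate kinase, was at 1440, 564, 665, 459 and 313 after sham surgery and 2100, 3210, 3310, 2900 and 3590 after IRI (adjusted p = 0.0415). It was called in 3 of the 10 fits with a library left out, with the highest adjusted p (0.117) without sham RIPC replicate 2. Of the list, 1 gene was called without IRI RIPC replicate 1 or 2 and 2 or 3 without any other library. Gpi1 was at 221 ± 89.8 and 622 ± 171 (log2 1.57 ± 0.29, adjusted p = 0.0591).

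Other genes past the threshold belonged to several functions. Hdc, which makes histamine, was at 585, 155, 340, 220 and 247 after sham surgery and 2790, 2900, 3040, 2650 and 3920 after IRI (log2 3.32 ± 0.36, adjusted p = 0.00818). Neat1, the long noncoding RNA of paraspeckles, had the smallest SE of the genes named, at 451 ± 81.1 and 1690 ± 283 (log2 1.90 ± 0.17, adjusted p = 0.00365). Smox, the spermine oxidase gene, went from 70.7 ± 26.9 to 618 ± 161, Plek, the kinase C substrate pleckstrin, from 217 ± 87.8 to 1470 ± 193, and Cd44, the hyaluronan receptor, from 115 ± 50.3 to 762 ± 93.3. Sipa1l2, of a family of Rap GTPase activators, was at 0.186 to 0.707 and 35.2 to 95.5 (log2 7.48 ± 0.73, adjusted p = 0.00371). Gda, guanine deaminase, went from 67.3 ± 22.0 to 445 ± 76.2. Ctsl, the protease cathepsin L, went from 278 ± 40.3 to 677 ± 112 (log2 1.28 ± 0.20, adjusted p = 0.0261). Ctsl was called in 2 of the 10 fits with a library left out. Cd44 was the 1 gene called of 22 of adhesion and migration, and Ctsl was the 1 that rose of 19 lysosomal cathepsins and inhibitors, of which 1 fell. Gm20400, an antisense transcript, went from 30.9 ± 7.99 to 295 ± 35.7, and since no strand was stated its reads cannot be told apart from those of the gene it overlaps. Mcl1, the survival factor on which neutrophils depend, went from 141 ± 51.5 to 570 ± 127 (log2 2.02 ± 0.31, adjusted p = 0.0261), as 1 of 26 tested genes of survival and cell death. Mcl1 was called in 3 of the 10 fits with a library left out.

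Granule proteins are made ahead of activation, and the oxidase makes superoxide. Of 22 granule protein genes, with a median log2 fold change of 1.78, edgeR called S100a11, a cytosolic member of the S100 family and no granule enzyme, which went from 384 ± 150 to 1050 ± 197 (log2 1.51 ± 0.26, adjusted p = 0.0461). The count of this list was not stable, with 7 called without sham control replicate 1, 2 without IRI control replicate 1, 0 without any other single library, and 8 by the Wald test of DESeq2. Mmp9, the gelatinase, was at 104 to 490 and 481 to 1700 (log2 2.33 ± 0.49, adjusted p = 0.0961). Mpo, a mark of granulocyte precursors, had no read in any sham library and 0 to 37.2 normalized CPM after IRI (adjusted p = 0.201). No gene of 9 of the NADPH oxidase was called by edgeR, with 3 at an unadjusted p under 0.05 and 2 called by DESeq2, and Ncf1, a cytosolic subunit, had a log2 fold change of 2.04 ± 0.43 (adjusted p = 0.0950). Among 38 interferon-stimulated genes 1 was called, Ifit1, at 0.141 to 1.21 and 15.7 to 85.5 (log2 6.91 ± 0.94, adjusted p = 0.0142). Slfn4 was at 137 ± 99.4 and 829 ± 316 (adjusted p = 0.0533). None of 23 genes of S phase, G2 and M phase and none of 17 genes of neutrophil aging and trafficking was called by edgeR, with 3 and 8 at an unadjusted p under 0.05, and DESeq2 called 1 and 3. Without sham control replicate 1 edgeR called 2 of the latter list, and without sham RIPC replicate 1 it called 1.

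**Figure D4:**
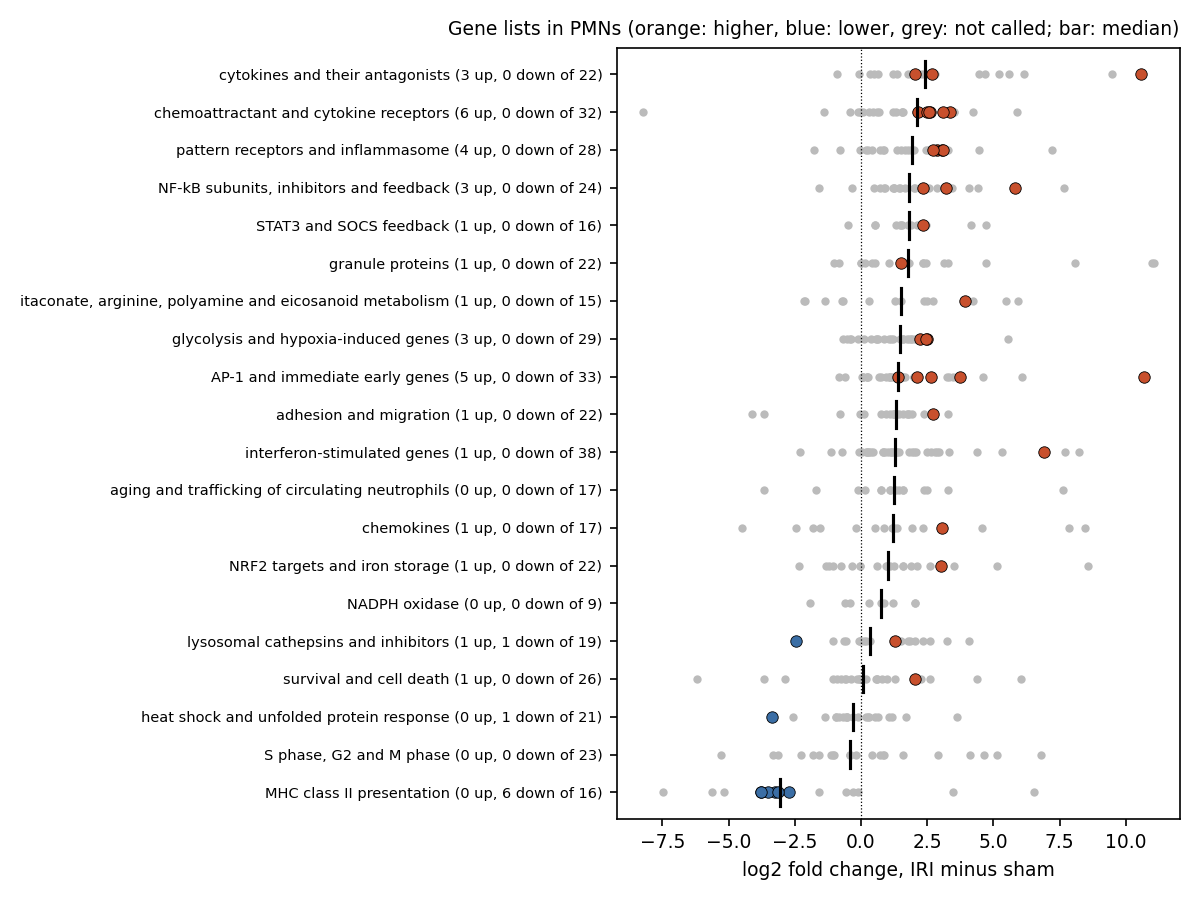
Log2 fold changes (IRI minus sham) of the tested members of 20 gene lists in PMNs. Each point is a gene, orange if higher, blue if lower and grey if not called, and bars are list medians. Points of genes with a group near 0 depend on the small count that edgeR adds. The MHC class II list had the lowest median, -3.07, and the cytokine list the highest, 2.43.

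MHC class II presentation held the largest group of genes that fell, 6 of 16 tested, with 0 higher and a median log2 fold change of -3.07 where the median of all genes was 0.00. H2-Aa, the alpha chain of I-A, measured 2080, 3430, 4800, 5560 and 2390 normalized CPM after sham surgery and 379, 353, 532, 348 and 284 after IRI (log2 -3.24 ± 0.30, adjusted p = 0.00365). H2-Ab1, its beta chain, was at 3350, 7090, 7670, 11500 and 4150 and then at 527, 389, 753, 416 and 369 (log2 -3.76 ± 0.36, adjusted p = 0.00371). In both genes each IRI library was below the lowest sham library, sham control replicate 1. H2-Eb1, the beta chain of I-E, went from 3750 ± 1580 to 324 ± 148 (log2 -3.50 ± 0.39, adjusted p = 0.00818). Cd74, the invariant chain, went from 12800 ± 4350 to 1940 ± 825 (log2 -2.71 ± 0.33, adjusted p = 0.0101). The peptide-exchange genes H2-DMa and H2-DMb1 went from 271 ± 112 to 20.5 ± 11.4 and from 453 ± 265 to 50.2 ± 14.6 (adjusted p = 0.0132 and 0.0186). Between 4 and 6 of the 6 were called with a library left out.

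Ciita, the master regulator of these genes, was at 39.7 ± 36.2 and 7.85 ± 9.82 (log2 -3.02 ± 2.11, adjusted p = 0.624). Of the costimulatory genes in the list, Cd86 changed little, at 77.4 ± 19.7 and 62.0 ± 23.5 (log2 -0.32 ± 0.41, adjusted p = 0.814). Cd80 was higher without a call, at 3.18 ± 6.46 and 104 ± 40.8 (log2 6.52 ± 1.48, adjusted p = 0.114). Beside these values stood the lower macrophage, dendritic cell and B cell marker sums of the IRI libraries given above, and C1qb, a macrophage complement gene, was at 2040 ± 710 and 373 ± 167 (log2 -2.44 ± 0.44, adjusted p = 0.0562). Of the 16 macrophage markers 11 were below 0. By edgeR 0 were called, with 7 lower and 1 higher at an unadjusted p under 0.05, 0 to 3 called lower with a library left out, and 5 lower by the Wald test of DESeq2. C1qb passed in 10 of 29 alternatives. Csf1r was at 406 ± 260 and 309 ± 90.0. With the macrophage marker sum as a covariate the fitted log2 change was -2.31 for H2-Aa, -2.86 for H2-Ab1, -2.34 for H2-Eb1 and -1.57 for Cd74, with adjusted p from 0.388 to 0.421. The part of other cells in the lower MHC class II levels was not tested.

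**Figure D5:**
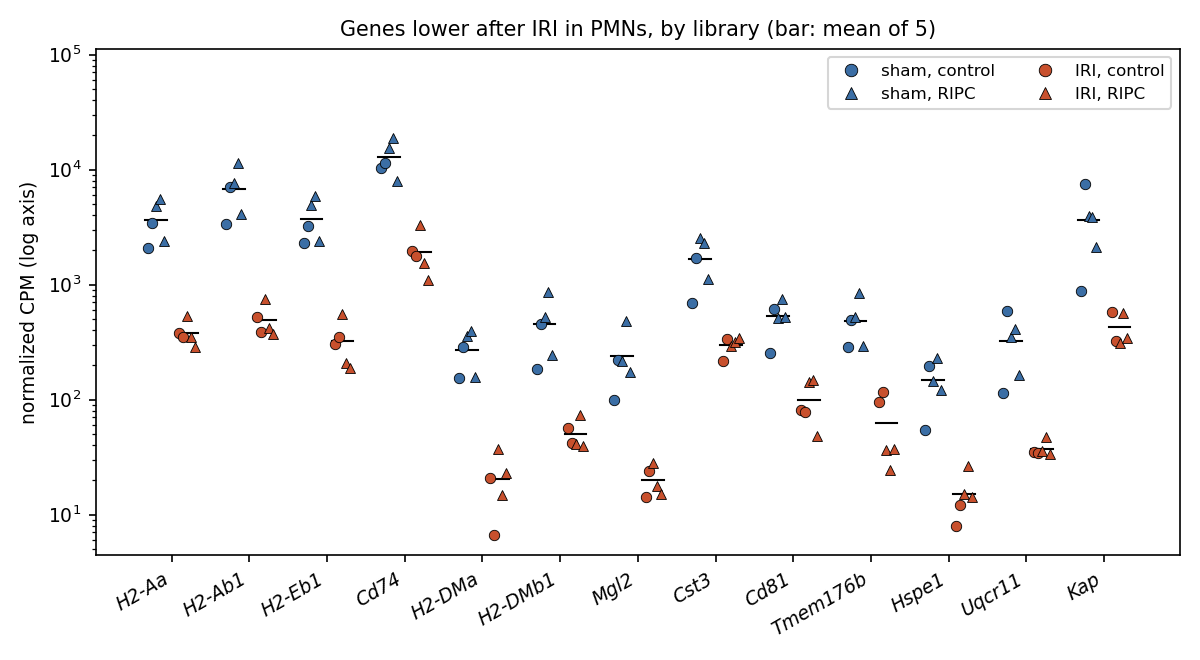
Normalized CPM (log axis) in each PMN library for 13 genes that fell. Blue points are sham and orange points IRI libraries, circles control and triangles RIPC, and bars are means of 5. Every IRI library lay below every sham library for each gene, with the least distance for Kap and Cd81.

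The Y box, CTGATTGG, is the known element of MHC class II promoters, and it is shown in capitals in the 250 bases upstream of the start of H2-Aa, chr17:34287824-34288073 (minus strand), and H2-Eb1, chr17:34305617-34305866 (plus strand), from RefSeq (GRCm38.p6), 5′ to 3′ on the gene's strand.
H2-Aa: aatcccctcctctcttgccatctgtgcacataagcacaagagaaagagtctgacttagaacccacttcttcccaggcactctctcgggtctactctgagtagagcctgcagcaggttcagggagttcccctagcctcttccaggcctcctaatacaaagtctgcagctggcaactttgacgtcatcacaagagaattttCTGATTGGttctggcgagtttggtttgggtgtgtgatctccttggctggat
H2-Eb1: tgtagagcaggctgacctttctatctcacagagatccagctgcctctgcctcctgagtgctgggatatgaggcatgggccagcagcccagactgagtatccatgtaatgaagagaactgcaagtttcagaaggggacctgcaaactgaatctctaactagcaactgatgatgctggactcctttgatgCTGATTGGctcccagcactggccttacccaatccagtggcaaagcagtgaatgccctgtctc
It began 51 bases before the start in H2-Aa and 62 in H2-Eb1. Of all 20440 promoters 4.84% held it on either strand, against 2 of 14 promoters of genes that fell and 3 of 69 of genes that rose. The promoters of H2-DMa and H2-DMb1, which also fell, held no match, but the start used for H2-DMa was 3291 bases from its Gencode start. No promoter was found for H2-Ab1 and Cd74.

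Ch25h, the enzyme that makes 25-hydroxycholesterol, was close to absent after IRI. It had 1923, 357, 2801, 1536 and 1267 reads in the sham libraries, and 2 reads in IRI control replicate 1 with none in the other IRI libraries (adjusted p = 0.0101). A count of 0 allows up to 3 reads, and no fold change is given where a whole group is at or under that floor. In normalized CPM the sham libraries ran from 16.6 to 132. Clec4b1, a C-type lectin receptor of dendritic cells, had 184 to 1288 reads per sham library and a single read over the 5 IRI libraries (adjusted p = 0.0132). Mgl2, the lectin CD301b of macrophages and dendritic cells, went from 239 ± 147 to 19.8 ± 5.89 (log2 -3.53 ± 0.47, adjusted p = 0.0132). The adjusted p of Clec4b1 and Mgl2 rose to 0.0890 without IRI RIPC replicate 1 and 0.0608 without IRI RIPC replicate 2, respectively.

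The other genes that fell were of mixed function. Cst3, the protease inhibitor cystatin C, went from 1670 ± 783 to 301 ± 52.4 normalized CPM (log2 -2.44 ± 0.33, adjusted p = 0.0139). Cd81, a tetraspanin, went from 532 ± 182 to 99.3 ± 43.6 (adjusted p = 0.0293) and Tmem176b, a membrane channel protein of myeloid cells, from 486 ± 225 to 62.0 ± 41.2 (adjusted p = 0.0386). Hspe1, the mitochondrial chaperonin cofactor, went from 149 ± 67.8 to 15.1 ± 6.78 (log2 -3.35 ± 0.49, adjusted p = 0.0191), and Uqcr11, a subunit of respiratory complex III, from 325 ± 191 to 37.1 ± 5.52 (log2 -3.13 ± 0.48, adjusted p = 0.0255). Hspe1 was the 1 gene called of 21 heat shock and unfolded protein response genes. With a library left out, Cst3 was called in 7 of the 10 fits, Hspe1 in 4, Uqcr11 and Tmem176b in 3 each, and Cd81 in 2. The adjusted p of each was highest, 0.0726 to 0.146, without IRI RIPC replicate 1 or sham RIPC replicate 2.

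Kap, a kidney androgen-regulated gene of the proximal tubule, also fell in these PMN libraries. It was at 871, 7550, 3920, 3850 and 2110 normalized CPM after sham surgery and at 581, 325, 309, 566 and 341 after IRI (log2 -3.10 ± 0.52, adjusted p = 0.0397). Sham control replicate 2, which also had the highest proximal tubule sum, was highest, and sham control replicate 1 was nearest to the IRI libraries. All 13 tested proximal tubule markers had log2 fold changes below 0, with a median of -2.27, and Kap was the 1 called. Kap kept the call in 1 of the 10 fits with a library left out. With DESeq2 size factors in place of TMM factors its adjusted p by edgeR was 0.0542. Slc34a1, the phosphate carrier of that segment, was at 95.9 to 1210 and 84.1 to 138 (adjusted p = 0.181). Glyat, a glycine acyltransferase of liver and kidney, went from 104 ± 72.1 to 10.8 ± 3.81 (adjusted p = 0.0408) and was called in 1 of the 10 fits with a library left out. With the proximal tubule sum as a covariate the log2 change of Kap was -0.28 (adjusted p = 0.908). Kap is itself in that sum and gave 7550 of 12400 normalized CPM in sham control replicate 2. A value near 0 was therefore built into this fit, and nothing about Kap can be read from it.

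RIPC and control arms were then compared for the effect of surgery. No gene had an interaction of surgery and preconditioning past the threshold by edgeR (0 of 25002, with 1434 at an unadjusted p under 0.05, and 685 by the Wald test of DESeq2). Of the 107 genes, 10 had an unadjusted interaction p under 0.05. In the 2 and 2 control libraries alone 0 genes passed, with 1437 at an unadjusted p under 0.05, and in the 3 and 3 RIPC libraries alone 57 passed, 37 of them among the 107. Cxcl2 had a log2 fold change of 2.63 in the control libraries and 3.36 in the RIPC libraries, Slc7a11 of 2.59 and 3.33, and H2-Aa of -2.93 and -3.43. The interactions of these genes were 0.69, 0.71 and -0.54, with adjusted p from 0.834 to 0.970. That edgeR called no interaction does not show that the arms respond alike.

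The effect of surgery was also compared with that in TECs, in which 5 IRI and 6 sham libraries were used. Of 31769 genes tested in the difference of the effects, 1 passed (0.00315%), and it was Ch25h. In TECs Ch25h had no read in any sham library and reached 0 to 52.1 normalized CPM after IRI (mean 23.2 ± 23.8), so the direction was opposite to that in PMNs (test of the difference, adjusted p = 0.0388). Because both cell types have a group at or near 0, the fitted size of the difference depends on the small count that edgeR adds and is not read here. Its call was lost in 7 of the fits with a library left out, with adjusted p up to 0.121 without IRI RIPC replicate 3 of the PMNs, and the number of genes that passed ran from 0 to 50, the latter without sham control replicate 1 of the PMNs. Cxcl2 was at 0.0524 ± 0.0454 and 15.1 ± 12.4 normalized CPM in TECs, against 531 and 4430 in PMNs. The difference of its effects was -4.91 ± 0.82 (adjusted p = 0.0610). With the TEC sham group near 0, that size depends on the small count that edgeR adds. For Ccrl2, Slc7a11 and H2-Aa the differences were 3.31, 2.14 and -5.61, with adjusted p from 0.213 to 0.450. Acod1 had no read in any TEC sham library and a mean of 0.636 ± 1.32 normalized CPM in TECs after IRI, and its difference did not pass (adjusted p = 0.457).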

How the data were processed

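PMNs were sorted from wildtype mice, polyadenylated RNA was reverse transcribed with template switching and amplified as full-length cDNA, and single-end reads of 50 bases were taken. The authors trimmed reads with Trim Galore 0.6.4 and quantified transcripts with Salmon 1.0.0 against mm10. They deposited, per the file headers, estimated counts, TPM and effective transcript lengths in 2 files per library. Here the estimated counts were added over both files, summed over transcripts of each gene (Gencode M21, GRCm38; 139864 of 140748 transcripts matched, and the unmatched 884 held 0.139% to 0.255% of the reads) and rounded. Estimated counts share out reads between near-identical genes. The deposited TPM were not tested, and effective lengths gave the per-length levels.

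Autosomal genes that passed filterByExpr were fitted in edgeR 4.0.16 (R 4.3.3, limma 3.58.1) by its quasi-likelihood method, using TMM factors and terms for surgery and preconditioning, with calls at Benjamini-Hochberg adjusted p under 0.05. SE is the absolute log2 fold change divided by the square root of F, and so includes the spread between libraries as edgeR estimates it. The floor of 3 reads covers counting error only. DESeq2 1.42.0 and apeglm 1.24.0 served as alternatives. The test was tried on simulated counts first. With the gene-wise dispersions as estimated, it called 30 of 200 genes changed 8-fold and 162 of 200 changed 64-fold. With a dispersion of 0.1 for every gene it called all 200 changed 8-fold. A gene that was not called may therefore still have changed by such a size.

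Members and lists were chosen with earlier results of these data known. Named genes were up to 15 called genes per direction by p with a mean of at least 5 CPM, up to 4 members per list and 2 per marker list. Other genes were chosen after their values were seen, among them C5ar1, Ptafr, Dusp1, Csf2rb2, Ly6g, Glyat, Tnf, Tlr2, Tlr4, Tnfaip3, Nfkb1, Rel, Gclm, Gclc, Ciita, Cd80, Cd86 and Csf1r. The fits with a marker sum as covariate and without both sham control libraries were chosen after seeing the data. Promoters were from RefSeq (GRCm38.p6), found for 92 of 118 named genes. Strand was not stated for the counting.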

Additional observations from a re-analysis of the deposited data

Results flagged for a closer look

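In 26 of 236 groups of 5 PMN libraries, 1 library stood apart from the rest of its group by Dixon's criterion, which chance meets in about 1 of 20 groups. All values are normalized CPM. Sham control replicate 1 was high for Ier3 (343), Hmox1 (187), Bcl2l11 (70.3), Chil3 (4570), Per2 (20.1), Ppbp (71.5) and Ngp (2940). Sham control replicate 2 was high for Acod1 (307), Slc12a1 (417) and Umod (4330). Sham RIPC replicate 1 was high for Il12a (0.0943), and sham RIPC replicate 2 for Irf8 (209) and Cd4 (92.7). Sham RIPC replicate 3 was high for Egr3 (0.0484), Ifit1 (1.21), Cd274 (31.8), Aurka (0.968) and Emcn (138) and low for Rac2 (135).

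In the IRI group, control replicate 1 was high for Ch25h (0.0829), and control replicate 2 for Plvap (9.98), Gata2 (2.75), Hba-a2 (149) and Hba-a1 (98.6). RIPC replicate 1 was high for Clec4b1 (0.0388) and RIPC replicate 2 for Uqcr11 (46.9). The values of Ch25h, Egr3, Clec4b1 and Il12a stand for 1 or 2 reads.

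The effect of surgery on Ch25h differed between PMNs and TECs by -23.99 on the log2 scale (edgeR, adjusted p = 0.0388), with opposite directions in the cell types. With groups at or near 0 this fitted value depends on the small count that edgeR adds and is no bound.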

How the results depend on the processing

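In PMNs 107 genes passed, 89 higher and 18 lower after IRI. No filter on low counts gave 445 (309 higher, 136 lower), and at least 10 counts in every library 521 (354 and 167). DESeq2's Wald test gave 1914 (1085 and 829) and apeglm 998 (655 and 343). The transcript length offset gave 11 lower and no covariate 34 lower. Without both sham control libraries 138 rose. The control libraries alone gave 0, the RIPC libraries alone 57 (51 and 6), and either marker covariate 0. With a library left out the total ran from 43 to 301, higher genes from 36 to 212 and lower genes from 5 to 89. With the replicate block 40 passed (28 higher, 12 lower), 37 of them among the 107. Replicate numbers were not taken to pair the samples, since they are not stated to mark an animal or a day. Deviations from the group mean (log2 CPM) of same-numbered IRI and sham libraries correlated at r = 0.003 to 0.014. With 2 libraries per control group, the 2 control values (both 0.003) are not independent. All other settings stayed within 1.5 times. The median log2 change of all genes was 0.327 without sham control replicate 1, 0.105 without a filter, 0.116 by the Wald test, -0.490 with the tubule covariate and 0.269 with the macrophage covariate.

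The interaction had 101 genes (62 higher, 39 lower) without a filter, 685 (399 and 286) by the Wald test and 0 otherwise. PMNs minus TECs had 1 gene, 491 without a filter (249 and 242), 144 with at least 10 counts (116 and 28), 2 (both lower) in thinned libraries, 0 with the replicate block, and 0 to 50 with a library left out (0 to 37 higher, 0 to 13 lower). Ch25h there had adjusted p = 0.0527 with the block and up to 0.121 with a library left out.

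Of 3394 gene values under alternatives 2821 kept direction and call, 374 lost the call, 175 gained it and 24 reversed, none of these in the 52 called genes. Reversed log2 values were, for Emcn, 0.02 with the block, 0.51 without sham RIPC replicate 3 and 2.64 in control libraries. For Cd4 they were 4.77, 1.56 and 1.53 without sham RIPC replicate 2, IRI RIPC replicate 2 and IRI RIPC replicate 3, 0.01 with apeglm, 1.39 with group means, 5.15 in control libraries, and 4.18 and 6.63 with the tubule and macrophage covariates. S100a8 was -0.05 without sham RIPC replicate 3, -0.14 without IRI RIPC replicate 2, -0.62 in control libraries and -0.45 with the tubule covariate. Pf4 was -0.00 without IRI RIPC replicate 2 and -0.30 with the tubule covariate, and S100a9 -0.30 in control libraries and -0.17 with that covariate. The same covariate turned Ass1 (0.72), Slc34a1 (0.90), Slc12a1 (1.72), Umod (4.45) and Ngp (-0.92), of which Slc34a1 is itself in the tubule sum. With a library left out the full ranges were -2.62 to 0.51 for Emcn, -2.88 to 4.77 for Cd4, -0.14 to 0.53 for S100a8 and -0.00 to 0.91 for Pf4. The cause was not tested.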
